A study of Mus musculus with 18 samples.

Results

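Toll-like receptors are a family of pattern recognition receptors, and 10 of their genes were followed here through 3 subsets of mouse colon dendritic cells: Tlr1, Tlr2, Tlr3, Tlr4, Tlr5, Tlr7, Tlr8, Tlr9, Tlr11 and Tlr13. They were chosen by gene symbol in the array annotation, among probe sets that carry 1 symbol, with the highest mean over the arrays deciding where a gene had several. Of the 10 genes, 8 had such a probe set, 1 each, and all 8 were among the 14003 genes tested. Tlr5 and Tlr11 matched no probe set of 1 symbol and were not analysed here. The cells came from the colon lamina propria of 8-week-old BALB/c mice, from a gate for MHC-positive cells with high CD11c, and were sorted by CD103 and CD11b. The 6 groups were DSS CD103+CD11b-, DSS CD103+CD11b+, DSS CD103-CD11b+ and the same 3 subsets from untreated mice, with 3 arrays each and 18 arrays in all. DSS, or dextran sulfate sodium, was given at 2% and is a sulfated polysaccharide used to induce colitis in mice. Each experiment supplied 1 array per subset, with untreated mice behind replicates 1 to 3 and DSS mice behind replicates 4 to 6. Neither the number of mice pooled for an array nor the length of the DSS treatment is stated in the labels, so the p-values measure the spread between these arrays. No experiment holds both conditions, so experiment and DSS cannot be told apart.

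Toll-like receptors bind molecules that microbes carry or that injured cells release. Those at the cell surface mostly sense lipids and proteins of microbes, while those in endosomes mostly sense nucleic acids taken up with microbes or dead cells. Most of the endosomal ones need trimming by lysosomal proteases before they signal. Nearly all members signal through the adaptor Myd88; Tlr3 uses Ticam1 instead, and Tlr4 uses both. In the colon, where microbes are dense, these receptors are a way in which dendritic cells and macrophages tell harmless from invading microbes. By location the genes measured were 3 for surface receptors (Tlr1, Tlr2 and Tlr4) and 5 for endosomal receptors (Tlr3, Tlr7, Tlr8, Tlr9 and Tlr13).

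Promoter sequence is shown for 3 endosomal members whose levels ran differently across the subsets. Tlr8 stood above a log2 level of 3.51 only in CD103-CD11b+ cells. Tlr9 was lower in CD103+CD11b- cells than in both other subsets in untreated mice. Tlr13 was not called in any comparison of the linear model fitted on all arrays. Each sequence is the 250 bases before the gene's start in RefSeq, build GRCm38.p6, written 5′ to 3′ along the gene. None of the 3 windows overlaps an annotated gene. The capitals mark GAGGAA, the core that the myeloid factor PU.1 can bind, searched on both strands, so that TTCCTC is the match on the other strand.
Tlr8, chrX:167264330-167264579, minus strand: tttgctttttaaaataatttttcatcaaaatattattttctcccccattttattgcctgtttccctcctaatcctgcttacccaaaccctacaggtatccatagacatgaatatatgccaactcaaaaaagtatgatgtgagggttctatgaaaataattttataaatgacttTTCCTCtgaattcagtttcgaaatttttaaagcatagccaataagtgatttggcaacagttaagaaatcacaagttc
Tlr9, chr9:106222348-106222597, plus strand: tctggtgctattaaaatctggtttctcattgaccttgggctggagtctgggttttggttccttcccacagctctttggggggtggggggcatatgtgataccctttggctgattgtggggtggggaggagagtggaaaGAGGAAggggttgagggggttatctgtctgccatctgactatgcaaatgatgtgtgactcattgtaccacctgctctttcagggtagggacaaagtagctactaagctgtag
Tlr13, chrX:106143025-106143274, plus strand: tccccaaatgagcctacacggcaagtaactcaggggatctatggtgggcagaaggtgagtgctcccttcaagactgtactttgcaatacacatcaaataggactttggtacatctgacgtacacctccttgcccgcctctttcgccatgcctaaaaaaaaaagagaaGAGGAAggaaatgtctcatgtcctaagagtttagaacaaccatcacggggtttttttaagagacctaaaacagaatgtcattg
The match begins 77 bases before the start in Tlr8, 112 in Tlr9 and 83 in Tlr13. The same letters occur in 23.25% of the 32851 promoter windows of this length in the table, so the match is a description of these windows. Neither an interferon response element (GAAANNGAAA, in 2.98% of windows) nor the NF-kappaB letters GGGANNNNCC (in 17.63%) occurs in any of the 3. The 3 windows do not stand for the family. Among those not shown, Tlr2, Tlr3 and Tlr5 hold the NF-kappaB letters and not GAGGAA. A window of Tlr1 and that of Tlr11 hold GAGGAA, the latter with an interferon response element too. The reference strain is C57BL/6J and not the BALB/c strain studied, and the promoter table held 8 of the 10 genes.

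Values are log2 expression per array, made by RMA, and a difference is the first subset named minus the second, with the standard error of a linear model in limma fitted on all 18 arrays. Calls required a Benjamini-Hochberg adjusted p under 0.05, taken across the whole table of genes tested. Arrays of 1 group correlated at 0.965 to 0.982 over all 34760 probe sets. Probe sets count as low under a level of 3.51, the 40th percentile of all values. That level is not a measured background, so a difference from a group mean under it may understate the change.

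**Figure D1:**
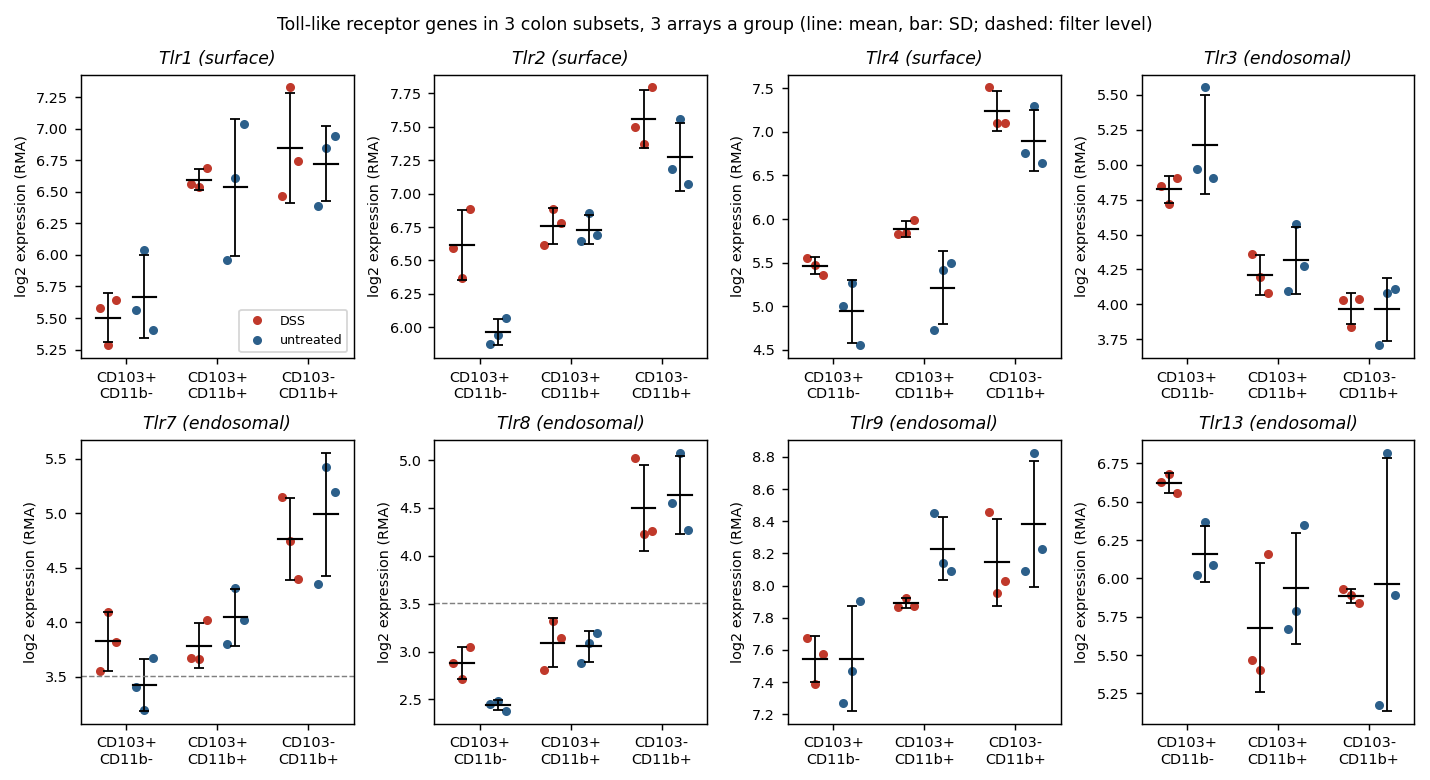
Log2 expression (RMA) of the 8 measured receptor genes on every array, with DSS left of untreated in each subset; lines are means, bars SDs of 3 arrays, and the dashed line is the filter level of 3.51. Tlr4 and Tlr8 separate CD103-CD11b+ cells from both CD103+ subsets, whereas Tlr3 is highest in CD103+CD11b- cells.

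Tlr4, which senses bacterial endotoxin, was highest in CD103-CD11b+ cells. Tlr4 in CD103-CD11b+ cells stood at 7.51, 7.10 and 7.11 after DSS and at 6.76, 7.29 and 6.65 in untreated mice. Tlr4 in CD103+CD11b+ cells stood at 5.83, 5.84 and 5.99 after DSS and at 4.73, 5.41 and 5.49 in untreated mice. Tlr4 in CD103+CD11b- cells stood at 5.55, 5.47 and 5.36 after DSS and at 5.00, 5.27 and 4.55 in untreated mice. Every array of CD103-CD11b+ cells lay above every array of the other 2 subsets, whatever the condition. In untreated mice Tlr4 differed by -1.96 ± 0.21 in CD103+CD11b- versus CD103-CD11b+ cells, a 3.89-fold lower level (limma, adjusted p = 2.16e-06). Between CD103+CD11b+ and CD103-CD11b+ cells of untreated mice the difference was -1.69 ± 0.21 (limma, adjusted p = 0.000147). After DSS these differences were -1.78 ± 0.21 (adjusted p = 9.82e-06) and -1.35 ± 0.21 (adjusted p = 0.00162) in the same limma model. The CD103+ subsets were not called apart for Tlr4, at -0.42 ± 0.21 after DSS and -0.27 ± 0.21 in untreated mice. Within each of the 6 experiments CD103+CD11b- cells were below CD103-CD11b+ cells, by between -2.10 and -1.63.

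Tlr2, which senses bacterial lipoproteins, stepped up from subset to subset in untreated mice. Tlr2 in CD103+CD11b- cells stood at 6.59, 6.37 and 6.89 after DSS and at 5.88, 5.95 and 6.07 in untreated mice. Tlr2 in CD103+CD11b+ cells stood at 6.61, 6.88 and 6.78 after DSS and at 6.65, 6.85 and 6.69 in untreated mice. Tlr2 in CD103-CD11b+ cells stood at 7.50, 7.37 and 7.79 after DSS and at 7.18, 7.56 and 7.07 in untreated mice. The 3 untreated subsets did not overlap, while after DSS the 2 CD103+ subsets did. CD103+CD11b- cells were lower than CD103-CD11b+ cells by 2.48-fold in untreated mice (-1.31 ± 0.16, limma, adjusted p = 8.34e-06) and by 1.91-fold after DSS (-0.94 ± 0.16, adjusted p = 0.000471). CD103+CD11b- versus CD103+CD11b+ cells was called in untreated mice (-0.77 ± 0.16, limma, adjusted p = 0.00364) and not after DSS (-0.14 ± 0.16, adjusted p = 0.804). The test of that change in the difference gave 0.63 ± 0.22 with an adjusted p of 0.983. For CD103+CD11b+ versus CD103-CD11b+ cells, Tlr2 was lower after DSS (-0.80 ± 0.16, limma, adjusted p = 0.0119) and missed the threshold in untreated mice (-0.54 ± 0.16, adjusted p = 0.0651). That untreated difference passed with the experiment number as a block (adjusted p = 0.0431), with quantile normalization applied again (0.0255), with array medians set equal (0.0456), with the filter at the 60th percentile (0.0495) and without replicate 3 of CD103-CD11b+ cells (0.0497), and without replicate 2 of those cells its adjusted p was 0.252. The DSS call was lost without replicate 4 of DSS CD103+CD11b+ cells (adjusted p = 0.0738) and without replicate 6 of DSS CD103-CD11b+ cells (adjusted p = 0.0877).

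Tlr1, which pairs with Tlr2 to sense triacylated lipopeptides, divided CD103+CD11b- cells from both CD11b+ subsets. Tlr1 in CD103+CD11b- cells stood at 5.58, 5.28 and 5.65 after DSS and at 5.57, 6.04 and 5.41 in untreated mice. Tlr1 in CD103+CD11b+ cells stood at 6.57, 6.54 and 6.69 after DSS and at 5.96, 6.61 and 7.04 in untreated mice. Tlr1 in CD103-CD11b+ cells stood at 6.47, 7.33 and 6.75 after DSS and at 6.38, 6.85 and 6.94 in untreated mice. The CD103+CD11b- arrays were the low ones, and 1 of the untreated ones overlapped untreated CD103+CD11b+ cells. Against CD103-CD11b+ cells the difference was -1.34 ± 0.25 after DSS (limma, adjusted p = 0.00111) and -1.05 ± 0.25 in untreated mice (adjusted p = 0.00788). Against CD103+CD11b+ cells it was -1.09 ± 0.25 after DSS (limma, adjusted p = 0.00891) and -0.87 ± 0.25 in untreated mice (adjusted p = 0.0398). Leaving out 1 array could end 3 of these calls. Without replicate 3 of untreated CD103+CD11b- cells the first untreated call had an adjusted p of 0.0504, and without replicate 5 of DSS CD103+CD11b- cells the second DSS call had 0.0514. The second untreated call was lost without replicate 1 or 3 of CD103+CD11b- cells or replicate 2 or 3 of CD103+CD11b+ cells, among 8 settings with an adjusted p of 0.0519 to 0.173. The 2 CD11b+ subsets were not called apart for Tlr1 in either condition (-0.25 ± 0.25 after DSS and -0.19 ± 0.25 in untreated mice).

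Tlr3, the endosomal receptor for double-stranded RNA, was the member that was higher in CD103+CD11b- cells. Tlr3 in CD103+CD11b- cells stood at 4.85, 4.72 and 4.90 after DSS and at 4.97, 5.55 and 4.91 in untreated mice. Tlr3 in CD103+CD11b+ cells stood at 4.36, 4.19 and 4.08 after DSS and at 4.09, 4.57 and 4.28 in untreated mice. Tlr3 in CD103-CD11b+ cells stood at 4.03, 3.84 and 4.04 after DSS and at 3.71, 4.08 and 4.11 in untreated mice. All 6 CD103+CD11b- arrays lay above all 12 others, and the 2 CD11b+ subsets overlapped in untreated mice. CD103+CD11b- exceeded CD103-CD11b+ cells by 1.18 ± 0.17 in untreated mice (2.26-fold, limma, adjusted p = 7.54e-05) and by 0.85 ± 0.17 after DSS (1.81-fold, adjusted p = 0.0023). CD103+CD11b- exceeded CD103+CD11b+ cells by 0.83 ± 0.17 in untreated mice (limma, adjusted p = 0.00357) and by 0.61 ± 0.17 after DSS (adjusted p = 0.0374). The last call was lost without any 1 of the 6 DSS arrays compared, replicates 4, 5 or 6 of either subset, at adjusted p-values of 0.052 to 0.15. Within each of the 6 experiments CD103+CD11b- cells were above CD103-CD11b+ cells, by 0.80 to 1.47.

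Tlr8, an endosomal receptor that in humans senses single-stranded RNA, had its high values in CD103-CD11b+ cells. Tlr8 in CD103+CD11b- cells stood at 2.88, 2.71 and 3.04 after DSS and at 2.45, 2.49 and 2.38 in untreated mice. Tlr8 in CD103+CD11b+ cells stood at 2.81, 3.32 and 3.15 after DSS and at 2.88, 3.09 and 3.19 in untreated mice. Tlr8 in CD103-CD11b+ cells stood at 5.02, 4.23 and 4.26 after DSS and at 4.55, 5.08 and 4.27 in untreated mice. The 6 CD103-CD11b+ arrays were the only ones of the 18 above the filter level of 3.51. Tlr8 thus entered the table through the subset where it is high and had to differ from the others, so its differences are given as a description, with no test. CD103+CD11b- versus CD103-CD11b+ cells differed by -2.19 ± 0.21 in untreated mice and by -1.63 ± 0.21 after DSS. CD103+CD11b+ versus CD103-CD11b+ cells differed by -1.58 ± 0.21 in untreated mice and by -1.41 ± 0.21 after DSS. Each of these Tlr8 differences, in both pairs, may be understated, as its lower mean was under the filter level. A filter at the 60th percentile of all values leaves Tlr8 out of the test.

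Tlr7, the single-stranded RNA receptor encoded beside Tlr8 on the X chromosome, had its high values in the same subset. Tlr7 in CD103+CD11b- cells stood at 3.56, 4.09 and 3.82 after DSS and at 3.40, 3.20 and 3.67 in untreated mice. Tlr7 in CD103+CD11b+ cells stood at 3.67, 3.66 and 4.02 after DSS and at 3.80, 4.31 and 4.01 in untreated mice. Tlr7 in CD103-CD11b+ cells stood at 5.15, 4.74 and 4.39 after DSS and at 4.35, 5.42 and 5.19 in untreated mice. The CD103-CD11b+ arrays lay above both other subsets of their condition. CD103+CD11b- versus CD103-CD11b+ cells differed by -1.57 ± 0.24 in untreated mice (limma, adjusted p = 0.000167), where the lower mean was under the filter level, and by -0.94 ± 0.24 after DSS (adjusted p = 0.0176). CD103+CD11b+ versus CD103-CD11b+ cells differed by -0.95 ± 0.24 in untreated mice (limma, adjusted p = 0.0316) and by -0.98 ± 0.24 after DSS (adjusted p = 0.0497). The first DSS call was lost without replicate 4 or 6 of DSS CD103+CD11b- cells or replicate 4 of DSS CD103-CD11b+ cells, at adjusted p-values of 0.0534 to 0.117. The second untreated call was lost without replicate 1 or 3 of CD103+CD11b+ cells or replicate 2 or 3 of CD103-CD11b+ cells, among 5 settings with 0.0735 to 0.163. The second DSS call was lost without replicate 4, 5 or 6 of CD103+CD11b+ cells or replicate 4 or 5 of CD103-CD11b+ cells, among 7 settings with 0.0556 to 0.262.

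Tlr9, the receptor for DNA rich in unmethylated CpG, differed less. Tlr9 in CD103+CD11b- cells stood at 7.67, 7.39 and 7.58 after DSS and at 7.27, 7.47 and 7.90 in untreated mice. Tlr9 in CD103+CD11b+ cells stood at 7.87, 7.92 and 7.88 after DSS and at 8.45, 8.14 and 8.09 in untreated mice. Tlr9 in CD103-CD11b+ cells stood at 8.46, 7.96 and 8.03 after DSS and at 8.09, 8.83 and 8.23 in untreated mice. CD103+CD11b- arrays were below those of both other subsets in each condition. In untreated mice Tlr9 was lower in CD103+CD11b- cells by -0.84 ± 0.19 versus CD103-CD11b+ cells (limma, adjusted p = 0.00691) and by -0.68 ± 0.19 versus CD103+CD11b+ cells (adjusted p = 0.0371). The call versus CD103-CD11b+ cells missed the threshold without replicate 1 of CD103+CD11b- cells (adjusted p = 0.05001) and in a fit of those 2 groups alone (0.0538). The call versus CD103+CD11b+ cells was lost without replicate 1 or 2 of either subset, among 5 settings with adjusted p-values of 0.0685 to 0.182. After DSS the differences were -0.60 ± 0.19 and -0.34 ± 0.19 and were not called (limma, adjusted p = 0.0647 and 0.454). The first of them passed with limma-trend (adjusted p = 0.04996) and in a fit of those 2 groups alone (0.0482).

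Tlr13, which senses bacterial ribosomal RNA, was not called in any comparison of the model of all arrays. Tlr13 in CD103+CD11b- cells stood at 6.63, 6.68 and 6.55 after DSS and at 6.02, 6.37 and 6.09 in untreated mice. Tlr13 in CD103+CD11b+ cells stood at 5.47, 5.40 and 6.16 after DSS and at 5.67, 5.79 and 6.35 in untreated mice. Tlr13 in CD103-CD11b+ cells stood at 5.93, 5.89 and 5.84 after DSS and at 5.17, 6.82 and 5.89 in untreated mice. The DSS CD103+CD11b- arrays lay above all arrays of the other 2 DSS subsets, and in untreated mice the subsets overlapped. After DSS the difference versus CD103+CD11b+ cells was 0.95 ± 0.29 (limma, adjusted p = 0.0626), which passed with the experiment number as a block (adjusted p = 0.0325) and without replicate 6 of DSS CD103+CD11b+ cells (1.19, adjusted p = 0.03). In fits of only the 2 groups compared, DSS CD103+CD11b- cells were called higher against CD103+CD11b+ (adjusted p = 0.0161) and CD103-CD11b+ cells (adjusted p = 0.00336). Against CD103-CD11b+ cells it was 0.74 ± 0.29 after DSS (adjusted p = 0.148) and 0.20 ± 0.29 in untreated mice (adjusted p = 0.805) in the same limma model.

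Counted over the 7 members other than Tlr8, CD103+CD11b- versus CD103-CD11b+ cells of untreated mice had 1 gene higher (Tlr3) and 5 lower, with 10.3% of all genes called in that comparison. After DSS the same pair had 1 higher and 4 lower, against 8.53% of all genes. CD103+CD11b- versus CD103+CD11b+ cells had 1 higher (Tlr3) and 3 lower in untreated mice, against 6.86% of all genes, and 1 higher and 1 lower after DSS, against 5.96%. CD103+CD11b+ versus CD103-CD11b+ cells had 2 lower in untreated mice, against 4.11%, and 3 lower after DSS, against 1.58%, with 0 higher. Members not called are not shown to be equal. The 3 pairs within a condition share arrays, so their counts are not independent, and in a sorted population fewer cells of a type and less RNA per cell cannot be told apart.

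By location, all 3 surface receptors were lower for CD103+CD11b- versus CD103-CD11b+ cells in both conditions, with a median difference of -1.34 after DSS and -1.31 in untreated mice. The 4 endosomal receptors other than Tlr8 ran both ways. Their differences in that pair spanned -0.94 to 0.85 after DSS with a median of 0.07, and -1.57 to 1.18 in untreated mice with a median of -0.32. Over all genes the median difference was -0.01 after DSS and 0.01 in untreated mice. Both locations held members with their high level in CD103-CD11b+ cells (Tlr4 at the surface and Tlr7 in endosomes). No test of surface against endosomal receptors was made, since genes are not replicates.

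**Figure D2:**
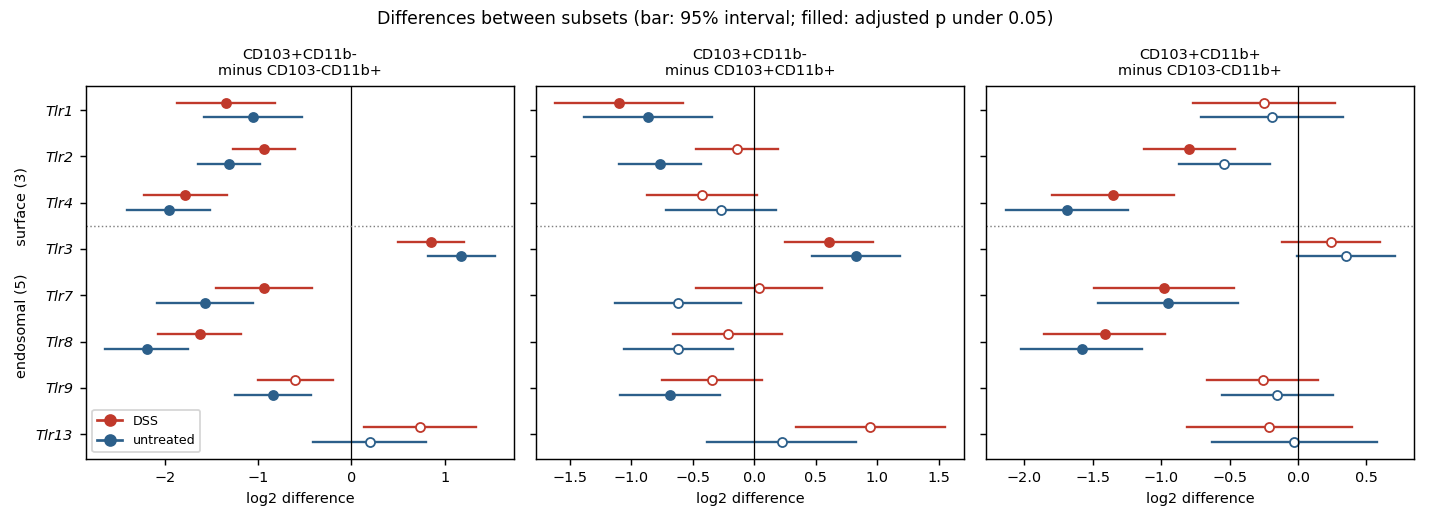
Log2 differences between subsets for the 8 receptors, 3 surface above and 5 endosomal below the dotted line, with DSS above untreated for each gene; bars are 95% intervals and filled points have an adjusted p under 0.05. In CD103+CD11b- minus CD103-CD11b+ cells the 3 surface receptors lie left of 0, and Tlr3 and Tlr13 are the endosomal genes to its right. Tlr8 passed the filter only through CD103-CD11b+ cells, so its filled points do not count as tests.

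After DSS, none of the 8 receptors was called in any subset. Of all genes, 0.129% were called for DSS against untreated CD103+CD11b- cells, 0.0857% in CD103+CD11b+ cells and 0.1% in CD103-CD11b+ cells, so few genes of any kind passed. Without adjustment 2 receptors in CD103+CD11b- cells, 1 in CD103+CD11b+ cells and 0 in CD103-CD11b+ cells had a p under 0.05 in limma, against 852, 1410 and 1074 of all genes. Tlr2 in CD103+CD11b- cells was the member with the lowest adjusted p (0.215). It differed by 0.65 ± 0.16, or 1.57-fold, with all 3 DSS arrays above all 3 untreated ones. Tlr4 differed by 0.52 ± 0.21 in CD103+CD11b- cells (adjusted p = 0.75), 0.68 ± 0.21 in CD103+CD11b+ cells (adjusted p = 0.289) and 0.34 ± 0.21 in CD103-CD11b+ cells (adjusted p = 0.768). In CD103+CD11b- cells the DSS and untreated arrays did not overlap for 5 receptors, with Tlr2, Tlr4, Tlr8 and Tlr13 above and Tlr3 below, and for 12.3% of all genes. In CD103+CD11b+ cells they did not overlap for Tlr4, which was above, and Tlr9, which was below, and for 15.5% of all genes. In CD103-CD11b+ cells all 8 receptors overlapped, and 11.5% of all genes did not.

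Averaged over the 3 arrays of each experiment, so that an experiment counts once, Tlr4 was at 6.20 in the DSS experiments and 5.68 in the untreated ones. The difference of 0.51 ± 0.13 was not called (limma, adjusted p = 0.213), although the 3 DSS experiments lay above the 3 untreated ones. Tlr2 differed by 0.32 ± 0.10 (adjusted p = 0.337), also without overlap, and the other 6 receptors by -0.19 to 0.11 with overlap. Of all genes 15.9% did not overlap between the DSS and untreated experiments. In this comparison 0.186% of all genes were called and 0 receptors, with 2 receptors at an unadjusted p under 0.05 against 1466 of all genes.

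The endosomal receptors took no common direction after DSS. In CD103+CD11b- cells their differences ran from -0.32 (Tlr3) to 0.46 (Tlr13), in CD103+CD11b+ cells from -0.34 (Tlr9) to 0.04 (Tlr8), and in CD103-CD11b+ cells from -0.24 (Tlr9) to 0.01 (Tlr3). Tlr8 was under the filter level on every CD103+CD11b+ array, and without it the range in those cells ended at -0.10. Over the 8 members the 95% intervals of these differences reached from -0.69 to 1.07 in CD103+CD11b- cells, from -0.86 to 1.12 in CD103+CD11b+ cells and from -0.74 to 0.79 in CD103-CD11b+ cells, so a missing call does not show an equal level. The DSS effect differed between subsets for 0 receptors and for 0% of all genes in each of the 3 tests of a difference in effect. In those tests 510, 676 and 778 of all genes, and 0, 1 and 0 receptors, had an unadjusted p under 0.05 in limma, the receptor being Tlr2.

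**Figure D3:**
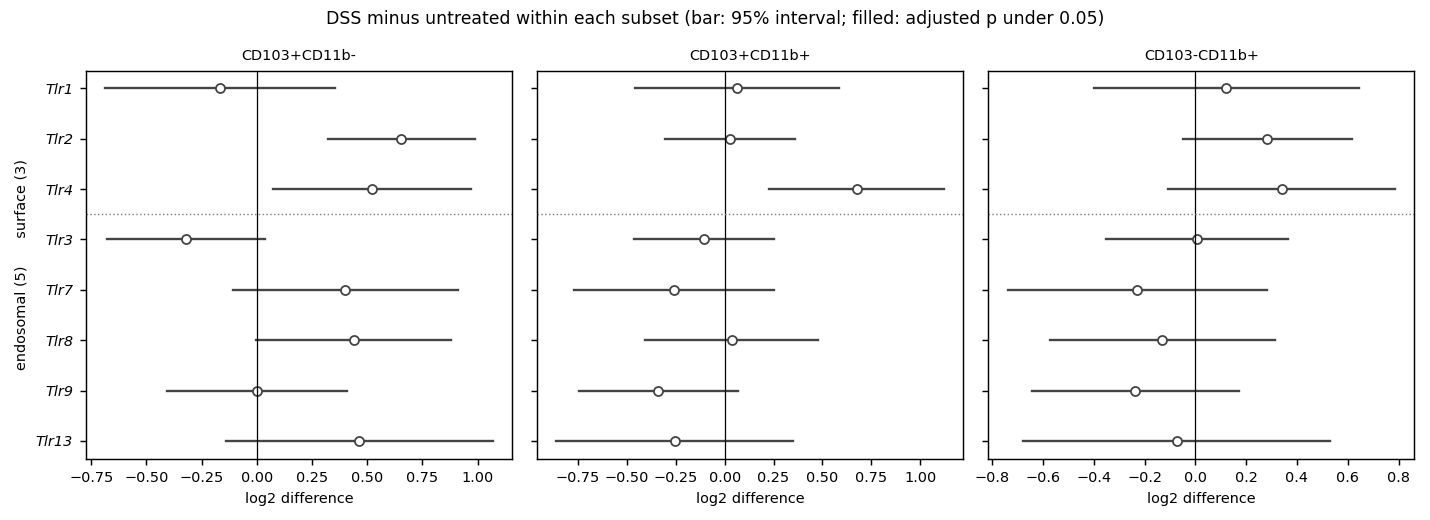
Log2 difference, DSS minus untreated, for the 8 receptors in each subset with 95% intervals, surface genes above the dotted line. All points are open, as none has an adjusted p under 0.05; Tlr2 in CD103+CD11b- cells (0.65) and Tlr4 in CD103+CD11b+ cells (0.68) lie farthest from 0.

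The partners of these receptors were followed with 61 genes on 7 lists, of which 55 were tested. These lists were chosen with earlier results of these data known. Their shares beside those of all genes are therefore a description and no test. In untreated CD103+CD11b- versus CD103-CD11b+ cells 4 were higher and 13 lower, or 30.9% of those tested, against 10.3% of all genes. After DSS 4 were higher and 9 lower, or 23.6%, against 8.53% of all genes. CD103+CD11b- versus CD103+CD11b+ cells had 3 higher and 4 lower after DSS, against 5.96% of all genes, and 3 higher and 5 lower in untreated mice, against 6.86%. CD103+CD11b+ versus CD103-CD11b+ cells had 0 higher and 3 lower after DSS, against 1.58% of all genes, and 3 higher and 5 lower in untreated mice, against 4.11%.

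Among 9 co-receptors and chaperones, 1 was higher and 3 lower in untreated CD103+CD11b- versus CD103-CD11b+ cells, where 10.3% of all genes were called. Cd14, which hands endotoxin to Tlr4, averaged 11.11 ± 0.06 in DSS and 10.93 ± 0.14 in untreated CD103+CD11b- cells, 10.96 ± 0.04 and 10.81 ± 0.18 in CD103+CD11b+ cells, and 11.73 ± 0.08 and 11.59 ± 0.14 in CD103-CD11b+ cells (SD, n = 3 each). Like Tlr4 it was highest in CD103-CD11b+ cells, and CD103+CD11b+ cells were lower by -0.77 ± 0.12 after DSS (limma, adjusted p = 0.00219) and by -0.78 ± 0.12 in untreated mice (adjusted p = 0.00109). The untreated call was lost in a fit of those 2 groups alone (adjusted p = 0.0585). Ly96, the protein that binds endotoxin together with Tlr4, was called in 1 pair, at -0.93 ± 0.27 in DSS CD103+CD11b- versus CD103+CD11b+ cells (limma, adjusted p = 0.0496). That call was lost in 7 settings, among them the replicate block (adjusted p = 0.0528) and leaving out replicate 4 or 5 of either subset or replicate 6 of CD103+CD11b+ cells (up to 0.183).

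Ly86, the partner of the Tlr4 homologue Cd180, was lower in CD103+CD11b- versus CD103-CD11b+ cells by -1.34 ± 0.18 after DSS (limma, adjusted p = 4.16e-05) and by -1.56 ± 0.18 in untreated mice (adjusted p = 5.23e-06). Cd36, a scavenger receptor that assists Tlr2, was on the other side, at 1.26 ± 0.20 versus CD103-CD11b+ cells (adjusted p = 0.00025) and 1.03 ± 0.20 versus CD103+CD11b+ cells (adjusted p = 0.00233) in untreated mice. After DSS these Cd36 differences were 0.53 ± 0.20 (adjusted p = 0.132) and 0.63 ± 0.20 (adjusted p = 0.0797), and the second passed with the replicate block (adjusted p = 0.0299). Unc93b1, the chaperone that carries nucleic acid receptors to endosomes, was lower for untreated CD103+CD11b+ versus CD103-CD11b+ cells by -0.72 ± 0.17 (limma, adjusted p = 0.0172). The Unc93b1 call was lost without replicate 3 of CD103+CD11b+ cells or replicate 2 of CD103-CD11b+ cells, among 3 settings with 0.0677 to 0.0844. It passed after DSS only with the replicate block (-0.64, adjusted p = 0.0323, against 0.0605 without).

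Among 6 adaptors tested, 1 was higher and 1 lower in CD103+CD11b- cells against each other subset in both conditions, and Myd88 and Ticam1 were not among them. Of all genes, 5.96% to 10.3% were called in these comparisons. Ticam2, which bridges Tlr4 to Ticam1, was the lower one. It averaged 5.00 ± 0.27 in DSS and 4.82 ± 0.04 in untreated CD103+CD11b- cells, 5.81 ± 0.22 and 6.002 ± 0.10 in CD103+CD11b+ cells, and 6.36 ± 0.25 and 6.11 ± 0.58 in CD103-CD11b+ cells (SD, n = 3 each). Its difference versus CD103-CD11b+ cells was -1.36 ± 0.22 after DSS (limma, adjusted p = 0.000267) and -1.30 ± 0.22 in untreated mice (adjusted p = 0.000391). Against CD103+CD11b+ cells Ticam2 differed by -0.81 ± 0.22 after DSS (adjusted p = 0.0305) and by -1.18 ± 0.22 in untreated mice (adjusted p = 0.00136), by limma. The DSS call was lost without replicate 4 or 5 of either subset or replicate 6 of CD103+CD11b+ cells (0.0507 to 0.154). Pik3ap1, an adaptor that links Toll-like receptors to phosphoinositide 3-kinase, was the higher one. It exceeded CD103+CD11b+ cells by 0.90 ± 0.15 after DSS (limma, adjusted p = 0.000736) and by 0.86 ± 0.15 in untreated mice (adjusted p = 0.00101).

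The endosomal proteases, which trim the endosomal receptors, were lower in CD103+CD11b- versus CD103-CD11b+ cells for 4 of 5 genes in both conditions, with 0 higher, where 8.53% of all genes were called after DSS and 10.3% in untreated mice. Ctsl, which encodes cathepsin L, averaged 7.18 ± 0.27 in DSS and 7.11 ± 0.04 in untreated CD103+CD11b- cells, 7.43 ± 0.32 and 7.33 ± 0.34 in CD103+CD11b+ cells, and 8.41 ± 0.12 and 8.75 ± 0.50 in CD103-CD11b+ cells (SD, n = 3 each). The first of these subsets was below the last by -1.23 ± 0.22 after DSS (limma, adjusted p = 0.000842) and by -1.64 ± 0.22 in untreated mice (adjusted p = 3.17e-05). Lgmn, the asparagine endopeptidase legumain, was lower in the same pair by -1.02 ± 0.15 after DSS (limma, adjusted p = 0.000138) and by -1.36 ± 0.15 in untreated mice (adjusted p = 3.52e-06).

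Signalling genes further down were followed in the same pair, where 8.53% of all genes were called after DSS and 10.3% in untreated mice. Of 10 kinases and ligases tested, 0 were higher and 2 lower in untreated CD103+CD11b- versus CD103-CD11b+ cells, and 0 were called after DSS. Of 5 transcription factors 1 was called in that pair in each condition, Irf5, which acts downstream of Myd88. It was higher in CD103+CD11b- cells by 0.67 ± 0.14 after DSS (limma, adjusted p = 0.00286) and by 0.71 ± 0.14 in untreated mice (adjusted p = 0.00137). Of 7 inhibitors 1 was higher after DSS and 1 lower in untreated mice. Socs1, a suppressor of cytokine signalling, was the higher one at 0.49 ± 0.14 (limma, adjusted p = 0.0384), a call lost with the replicate block (adjusted p = 0.0567) and without replicate 4 or 6 of either subset, among 6 settings with up to 0.221. Tollip, which binds Toll-like receptors and the kinase Irak1, was the lower one at -0.57 ± 0.18 (limma, adjusted p = 0.0487), a call lost without replicate 1, 2 or 3 of CD103+CD11b- cells or replicate 2 or 3 of CD103-CD11b+ cells, among 8 settings with 0.051 to 0.258. Among 13 inducible targets tested, 1 was higher and 2 lower in that pair in both conditions.

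Il12b, the interleukin-12 subunit that several of these receptors induce, averaged 7.46 ± 0.30 in DSS and 7.82 ± 0.35 in untreated CD103+CD11b- cells, against 5.87 ± 0.34 and 5.40 ± 0.29 in CD103-CD11b+ cells (SD, n = 3 each). The difference was 1.59 ± 0.25 after DSS (limma, adjusted p = 0.000235) and 2.41 ± 0.25 in untreated mice (adjusted p = 1.42e-06). Ptgs2, the inducible cyclooxygenase, ran the other way, at -1.21 ± 0.14 after DSS (adjusted p = 8.9e-06) and -1.48 ± 0.14 in untreated mice (adjusted p = 5.51e-07). Ptgs2 was also the 1 gene of the 55 called for DSS against untreated cells, in CD103+CD11b- cells, where 0.129% of all genes were called. There Ptgs2 rose to 9.70 ± 0.12 against 8.95 ± 0.09 in untreated mice (SD, n = 3 each), a difference of 0.75 ± 0.14 (limma, adjusted p = 0.0413). That call was lost without any 1 of the 6 arrays compared, replicates 1, 2 or 3 of untreated or 4, 5 or 6 of DSS CD103+CD11b- cells, and in a fit of those 2 groups alone (adjusted p = 0.101 to 0.228).

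The identity of the cells was read from marker lists. The mean log2 level of 5 markers common to dendritic cells (Flt3, Zbtb46, Dpp4, Itgax and Ccr7) lay between 8.12 and 8.70 on the DSS arrays and between 7.83 and 8.55 on the untreated ones. The mean of 8 epithelium markers lay between 7.78 and 8.47 on the DSS arrays and between 8.03 and 8.90 on the untreated ones. That of 6 B and plasma cell markers lay at 7.22 to 7.505 and 7.45 to 7.79. That of 6 T and NK cell markers was lower, at 5.26 to 5.70 and 5.17 to 5.76. How pure the sorted cells were was not tested. Xcr1, a marker of type 1 conventional dendritic cells, was at 9.42 to 9.55 in DSS and 9.53 to 9.76 in untreated CD103+CD11b- cells, against 5.93 to 6.58 and 5.22 to 5.63 in CD103-CD11b+ cells.

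Macrophage markers moved with the receptors that were high in CD103-CD11b+ cells. The mean of 10 of them was 6.02 to 6.12 in DSS and 5.46 to 5.75 in untreated CD103+CD11b- cells, 6.34 to 6.46 and 6.34 to 6.56 in CD103+CD11b+ cells, and 7.22 to 7.59 and 7.28 to 8.02 in CD103-CD11b+ cells. Summed on the linear scale they came to 1084 to 1113 and 662 to 906, to 1476 to 1531 and 1522 to 1891, and to 3397 to 4366 and 3743 to 6268 in the same order of groups. In CD103+CD11b- versus CD103-CD11b+ cells 7 of the 10 were lower after DSS and 8 in untreated mice, with 0 higher. Of all genes, 8.53% were called in that pair after DSS and 10.3% in untreated mice. Other lists moved in the same pair, with 7 of 7 markers of type 2 conventional dendritic cells lower in both conditions, 4 of 4 monocyte markers lower after DSS and 2 in untreated mice, and 2 of 7 plasmacytoid dendritic cell markers lower after DSS and 3 in untreated mice. Csf1r, the receptor of the macrophage growth factor, was at 9.37 to 9.58 in DSS and 9.15 to 9.87 in untreated CD103-CD11b+ cells. Of the 10 macrophage markers 1 was under the filter level on all 3 arrays of untreated CD103+CD11b+ cells, and 0 were in each of the other groups. The part of these lists in the differences of Tlr2, Tlr4, Tlr7 and Tlr8 was not tested. Untreated CD103-CD11b+ replicate 2 stood apart from replicates 1 and 3, with a macrophage mean of 8.02 against 7.34 and 7.28 and a plasmacytoid mean of 6.09 against 5.66 and 5.79. That array also had the highest untreated level of Tlr2, Tlr4, Tlr7, Tlr8, Tlr9 and Tlr13. Without it, 6 of the 7 members other than Tlr8 were called in untreated CD103+CD11b- versus CD103-CD11b+ cells, as with it, and 1 in CD103+CD11b+ versus CD103-CD11b+ cells in place of 2, Tlr7 being the one lost.

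**Figure D4:**
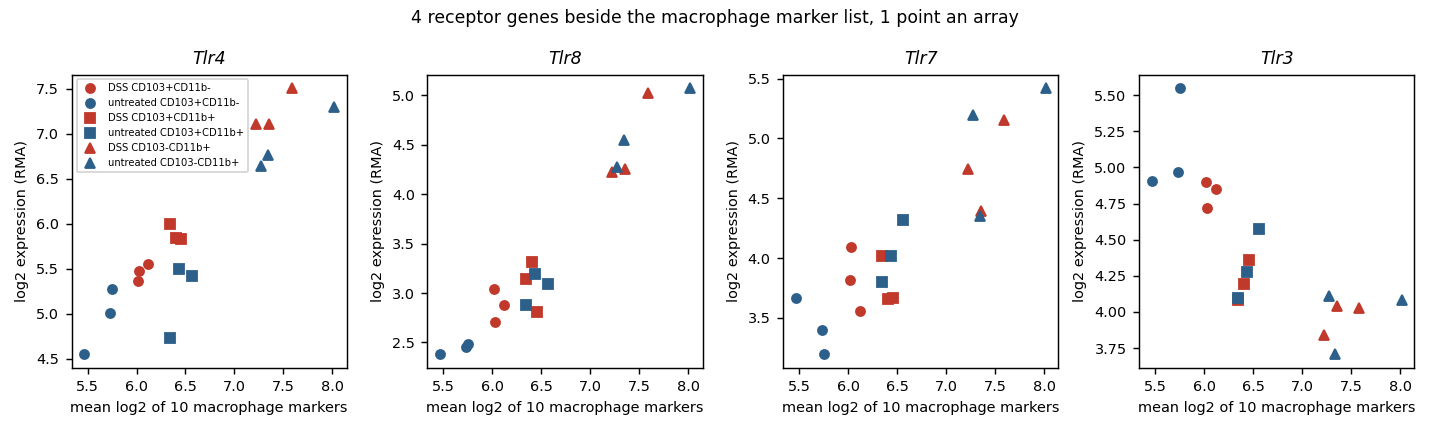
Level of 4 receptor genes (log2, RMA) against the mean log2 level of 10 macrophage markers, with 1 point for each of 18 arrays; circles are CD103+CD11b-, squares CD103+CD11b+ and triangles CD103-CD11b+ cells, DSS red and untreated blue. Tlr4, Tlr8 and Tlr7 are highest on the 6 CD103-CD11b+ arrays, where the marker mean is 7.22 or more, and Tlr3 is highest on the 6 CD103+CD11b- arrays, where it is 6.12 or less.

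The markers also bear on the DSS comparison. In CD103+CD11b- cells, where Tlr2 and Tlr4 did not overlap between conditions, the macrophage mean did not overlap either, and 0 of its 10 markers were called. Nor did the type 2 dendritic cell mean (5.97 to 5.99 in DSS and 5.60 to 5.80 in untreated cells, 1 of 7 markers called), the monocyte mean (8.49 to 8.52 and 8.18 to 8.43, 0 of 4 called) or the mean of markers common to dendritic cells (8.53 to 8.70 and 8.36 to 8.39, 0 of 5 called). The type 1 dendritic cell mean was also higher without overlap (8.777 to 8.861 and 8.658 to 8.755, 0 of 8 called). The B and plasma cell mean was lower without overlap (7.223 to 7.273 and 7.447 to 7.603, 0 of 6 called). In CD103+CD11b+ cells the macrophage means overlapped between conditions, while Tlr4 did not. The type 2, common dendritic, plasmacytoid, B and plasma cell and epithelium means were lower there after DSS without overlap, with 0 markers called. The neutrophil gene S100a9 was at 6.88 to 8.54 in DSS and 5.10 to 6.27 in untreated CD103+CD11b- cells, at 6.68 to 8.73 and 5.54 to 5.95 in CD103+CD11b+ cells, and at 6.52 to 8.59 and 5.76 to 6.42 in CD103-CD11b+ cells. The mean of 7 neutrophil markers was 4.32 to 5.40 in DSS and 3.996 to 4.47 in untreated CD103+CD11b- cells, 4.59 to 5.46 and 4.20 to 4.45 in CD103+CD11b+ cells, and 4.88 to 5.75 and 4.56 to 4.86 in CD103-CD11b+ cells, with 0 of 7 called in each. Of the 7, between 1 and 2 were under the filter level on all 3 arrays of a group, in every group. Their part in the differences of Tlr2 and Tlr4 was not tested.

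The members also differed in which other genes followed them over the 18 arrays, which fall into subsets, so these coefficients describe the subset pattern. Tlr8 was closest to Tcn2 (Pearson r = 0.98), Abca1 (0.97) and Csf1r (0.97), and Tlr4 to Tfec, Mmp14 and Tcn2 (each 0.95). Tlr2 was closest to Pla2g7 (0.96), Lst1 (0.94) and Fcgr1 (0.94), and Tlr7 to C3ar1 (0.92), Dmxl2 (0.92) and Rgl1 (0.91). Tlr3 was closest to Trim35 (0.92), Mctp1 (0.91) and Rabgap1l (0.91). Tlr1 was closest to Hnrnpll (0.90), Pea15a (0.90) and Pcyt1a (0.88), Tlr9 to Ms4a4a (0.91), Cd33 (0.90) and Pgf (0.88), and Tlr13 to Fchsd2 (0.81), Nek9 (0.80) and Chd7 (0.80). Among the members themselves Tlr4 and Tlr8 ran closest (0.94), ahead of Tlr2 with Tlr8 (0.90) and Tlr7 with Tlr8 (0.90). Tlr3 ran against Tlr2 (-0.79), and Tlr13 was within -0.31 to 0.49 of every other member.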

How the data were processed

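The 18 arrays (Affymetrix) hold 3 sorted subsets from 6 experiments, from 5 ng of total RNA each, amplified and biotin-labelled per the labels' protocols. The deposited table holds log2 values, 1 per probe set and array, which the authors made with RMA per the submitters' processing notes; its version is not given in the sources used here. RMA summarises probes after quantile normalization, so levels are relative within the set, and the number of arrays limits the precision.

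From these values, probe sets with 1 symbol (21640 of 34760) were kept if above 3.51 on at least 3 arrays, which left 14003 genes with 1 probe set each. Group means were fitted in limma 3.58.1 (R 4.3.3) with all 6 groups in 1 model, giving 12 of the 13 comparisons; the pooled DSS comparison used the mean of each experiment. Tests were two-sided, and the fits were tested on simulated data. Alternatives changed the filter, normalization, probe set rule, variance model, arrays in the fit and the replicate block, and left out each array.

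The experiment number in the titles was taken to pair the subsets of a condition. Residuals of arrays that share a number correlated, across genes, at 0.11 to 0.31 in DSS cells (9 of 9 pairs over 0.1) and at -0.03 to 0.32 in untreated cells (8 of 9), against medians of -0.13 and -0.12 for the other pairs. Residuals are taken from the mean of their group, so negative values for the other pairs follow from positive ones here. Those medians are no separate evidence of pairing.

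The members and lists were chosen with earlier results of these data known. Pathway genes are named if called and among the 3 largest differences of their list in a comparison, and the 3 genes closest to each member by correlation are named. Promoters came from RefSeq tables of build GRCm38.p6.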

Additional observations from a re-analysis of the deposited data

How the results depend on the processing

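Counts here include Tlr8, which passed the filter only through CD103-CD11b+ cells and had to differ there. Its calls against that subset are no sign that the counts are stable. With the experiment number as a replicate block, no receptor call was lost and 2 were gained, Tlr2 in untreated CD103+CD11b+ versus CD103-CD11b+ cells (4 receptors called in place of 3) and Tlr13 in DSS CD103+CD11b- versus CD103+CD11b+ cells (3 in place of 2). Among named pathway genes the block ended the calls of Ly96 (adjusted p = 0.0528) and Socs1 (0.0567). Among the recounts of called receptors, 190 were within 1.5 times the reported count. The other 8 were smaller, all with 1 array left out and all in pairs of subsets. The 190 include the recounts for the 7 comparisons of DSS effects, where the reported count was 0, so that total does not measure stability. Leaving out 1 array in turn gave 2 to 3 receptors in untreated CD103+CD11b- versus CD103+CD11b+ cells, 0 to 2 in the same pair after DSS, and 2 to 3 in DSS CD103+CD11b+ versus CD103-CD11b+ cells, the spread then resting on fewer arrays. In the 7 comparisons of DSS effects 0 receptors were called under every alternative. Outside the tests of a change in effect, 18 receptor differences changed sign in some setting, and 0 of them were called. Of the 24 tests of a change in effect, 9 changed sign in some setting, to values of -0.05 to 0.29, and 0 were called in any. Setting the array medians equal gave -0.023 for Tlr9 in CD103+CD11b- cells and -0.0044 for Tlr3 in CD103-CD11b+ cells (DSS against untreated). Quantile normalization gave -0.0293 for that Tlr9 difference and -0.0075 for Tlr1 over all subsets. Leaving out 1 array gave the following ranges. In untreated CD103+CD11b- versus CD103-CD11b+ cells Tlr13 ran from -0.20 to 0.63. In untreated CD103+CD11b+ versus CD103-CD11b+ cells Tlr1 ran from -0.44 to 0.10, Tlr13 from -0.42 to 0.40 and Tlr9 from -0.30 to 0.0689. In DSS CD103+CD11b- versus CD103+CD11b+ cells Tlr7 ran from -0.10 to 0.17. For DSS against untreated CD103+CD11b- cells Tlr1 ran from -0.30 to 0.017 and Tlr9 from -0.14 to 0.18. For DSS against untreated CD103+CD11b+ cells Tlr1 ran from -0.23 to 0.32, Tlr2 from -0.0342 to 0.10, Tlr3 from -0.21 to 0.0246 and Tlr8 from -0.0758 to 0.18. For DSS against untreated CD103-CD11b+ cells Tlr1 ran from -0.12 to 0.31, Tlr13 from -0.47 to 0.36, Tlr3 from -0.12 to 0.0766 and Tlr8 from -0.39 to 0.0908. Over all subsets, without each experiment in turn, Tlr1 ran from -0.16 to 0.10, Tlr13 from -0.15 to 0.20 and Tlr7 from -0.18 to 0.051. The cause of these changes was not tested. Signal near the filter level limits Tlr8 and, in untreated CD103+CD11b- cells, Tlr7, and the values carry no detection calls.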

Other observations

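The array also holds Tlr6, a surface partner of Tlr2, and Tlr12, an endosomal receptor, which were picked out here after their values were seen. In untreated CD103+CD11b- versus CD103-CD11b+ cells Tlr6 differed by -0.70 ± 0.20 (limma, adjusted p = 0.0271), with a lower mean under the filter level, and Tlr12 by -0.87 ± 0.27 (adjusted p = 0.0432). After DSS the differences were -0.38 ± 0.20 for Tlr6 (adjusted p = 0.3465) and -0.08 ± 0.27 for Tlr12 (adjusted p = 0.949), and the change in the Tlr12 difference was 0.79 ± 0.38 (adjusted p = 0.9999). In untreated CD103+CD11b+ versus CD103-CD11b+ cells Tlr12 differed by -1.11 ± 0.27 (limma, adjusted p = 0.021), and its arrays there stood at 4.30, 4.89 and 4.47 against 4.92, 6.31 and 5.79.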
